A study of Homo sapiens with 24 samples.

Results

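The Hippo pathway genes described here are 10 genes around the coactivator YAP and its TEAD partners: CCN1, CCN2, ANKRD1, AMOT, AMOTL2, LATS2, AXL, AJUBA, VGLL1 and YAP1. They were taken by symbol from a table of 58381 gene IDs, all 10 were found, and all 10 passed a filter of a mean of at least 0.5 FPKM (fragments per kilobase of transcript, scaled to library size) over the 24 libraries, as did 14228 genes in all. The cells were HaCaT, a human keratinocyte line that is immortal but not malignant, transduced with hsa-miR-186 or with an empty vector. Per the labels, 3 clonal lines of each construct were kept in 100 or 0 nM inorganic arsenic (iAs, a carcinogen of skin), and RNA was taken at weeks 29 and 12. This made 8 groups of 3 libraries: miR-186 at 100 nM and at 0 nM, and vector at 100 nM and at 0 nM, each at week 29 and at week 12.

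YAP is a coactivator that binds no DNA itself. In the nucleus it joins TEAD transcription factors on their target genes, and the kinases LATS1 and LATS2 phosphorylate it and hold it in the cytoplasm. Angiomotins such as AMOT and AMOTL2 bind YAP at cell junctions, and several pathway members, among them AMOTL2 and LATS2, are targets of YAP themselves. In keratinocytes YAP is known for supporting growth of the basal layer.

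The promoters of CCN2 and ANKRD1 are shown because these genes fell together between the weeks and because their windows hold more than 1 copy of GGAATG, the letters at the core of the motif that TEAD factors bind. Each runs from 250 bases before to 50 bases after the gene start, with GGAATG in capitals, from RefSeq on GRCh38.p14, chr6:131951323-131951622 for CCN2 and chr10:90921038-90921337 for ANKRD1, both on the minus strand.
CCN2: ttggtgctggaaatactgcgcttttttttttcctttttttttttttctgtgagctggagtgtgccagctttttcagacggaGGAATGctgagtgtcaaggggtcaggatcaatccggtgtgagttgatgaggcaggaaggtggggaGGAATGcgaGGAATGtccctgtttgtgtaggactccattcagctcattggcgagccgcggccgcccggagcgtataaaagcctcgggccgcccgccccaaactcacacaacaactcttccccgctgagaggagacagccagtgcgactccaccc
ANKRD1: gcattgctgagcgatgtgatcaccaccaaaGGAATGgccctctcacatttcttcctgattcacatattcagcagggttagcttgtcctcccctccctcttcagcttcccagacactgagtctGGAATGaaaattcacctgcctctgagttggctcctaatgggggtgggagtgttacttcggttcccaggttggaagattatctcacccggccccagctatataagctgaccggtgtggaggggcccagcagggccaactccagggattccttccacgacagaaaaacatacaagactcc

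The 3 copies in the CCN2 window began at −169, −104 and −95 from the gene start, and the 2 in the ANKRD1 window at −220 and −128. Copies of GGAATG, searched on both strands (CATTCC on the other), were found in the windows of 8 of the 9 genes with a window: 3 in CCN2, 2 in ANKRD1 and 1 each in AMOTL2, LATS2, AXL, AJUBA, VGLL1 and YAP1, and none in AMOT. AMOTL2, AXL and AJUBA have more than 1 window, and in all 8 of 12 windows held a copy. Of 35116 RefSeq windows of the same length, 14.0% held at least 1 copy, 1.37% at least 2 and 0.128% at least 3. A match of letters is a description, not a site of binding.

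The hairpin of the overexpressed microRNA is shown with the seed of its 5p arm, AAAGAAU, in capitals (RefSeq, GRCh38.p14, chr1:71067631-71067716, minus strand). Below it stand the matches to that seed, with ATTCTTT or, in the 8mer, ATTCTTTA in capitals, in the 3′ UTRs of AMOT, which rose in miR-186 lines, of YAP1 and of LATS2, from GENCODE release 29.
microRNA 186 hairpin: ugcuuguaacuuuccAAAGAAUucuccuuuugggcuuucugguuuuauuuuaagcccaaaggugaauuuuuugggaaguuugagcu
AMOT: tttggaaatggATTCTTTtggttccctcc
LATS2, first match: gttgtgattggATTCTTTgggggggggga
LATS2, second match: taaaaagttcaATTCTTTtttgcttttta
YAP1, 8mer: tatattagagaATTCTTTAatgcacacttg

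YAP1 was the only gene of the 10 with an 8mer, at bases 3300 to 3307 of its 3′ UTR on chromosome 11, and it had 1 further match of 7 letters. LATS2 had 2 matches of 7 letters, and AMOT, AMOTL2, AXL and AJUBA had 1 each, so that 6 of 10 had a match. CCN1, CCN2, ANKRD1 and VGLL1 had none. Of 19145 genes with an annotated 3′ UTR, 32.9% had such a match and 6.68% an 8mer.

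Some facts of the whole set bear on every value. The FPKM of a library summed to 712797 to 905683, and relative depth, from the step of low values, ran from 0.825 to 1.08. Read counts were not used here, so absolute depth was not measured. The gene of the hairpin, MIR186, had a listed value of 0 throughout, but an mRNA library does not measure the mature microRNA. Its host gene ZRANB2 had 30.4 to 65.3 FPKM in miR-186 libraries and 19.9 to 40.4 FPKM in vector libraries. All 6 keratinocyte markers were present in each library (summed level 925 to 2731 FPKM in miR-186 and 1843 to 3874 FPKM in vector libraries). Of 4 fibroblast markers COL1A2 and PDGFRB stayed below 0.1 FPKM, COL1A1 had 0.286 to 3.53 FPKM and DCN 0.0510 to 78.0 FPKM. DCN was highest in miR-186 lines at 0 nM, with up to 78.0 FPKM at week 29 and up to 27.6 FPKM at week 12, and reached at most 9.34 FPKM in vector lines. Of 4 melanocyte markers TYR was listed at 0 and DCT stayed at or below 0.0559 FPKM, while MITF had 1.94 to 9.57 FPKM and PMEL 0.708 to 2.31 FPKM. Of 3 endothelial markers PECAM1 stayed below 0.1 FPKM, VWF had 0.0643 to 0.933 FPKM and CDH5 3.67 to 20.6 FPKM. All libraries were sequenced together, per the labels. Which clone carries which replicate number is not stated. Changes are log2 changes of log2(FPKM + 0.5) ± standard error from limma. Adding 0.5 understates changes of low genes. A gene passed at a Benjamini-Hochberg adjusted p under 0.05 over all 14228 genes.

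The secreted matricellular proteins CCN1 and CCN2 and the nuclear ankyrin protein ANKRD1, the usual readouts of YAP activity, were lower at week 29 than at week 12. Over the 4 combinations of construct and dose, CCN2 fell by 1.70 ± 0.16 on the log2 scale (adjusted p = 7.39e-07), ANKRD1 by 1.42 ± 0.26 (adjusted p = 8.42e-04) and CCN1 by 1.32 ± 0.17 (adjusted p = 4.12e-05), with 12 libraries a week. The kinase gene LATS2 fell by 0.62 ± 0.08 (adjusted p = 3.62e-05) and the angiomotin gene AMOTL2 by 0.42 ± 0.08 (adjusted p = 0.00156). AMOT, at 0.79 ± 0.25 (adjusted p = 0.0225), and the LIM protein gene AJUBA, at 0.22 ± 0.08 (adjusted p = 0.0331), were higher at week 29. Without a filter on low values AMOT had adjusted p = 0.0515 and AJUBA adjusted p = 0.0585. In all 2 of the 10 genes were higher and 5 lower, against 30.4% of all genes tested past the threshold in either direction in this comparison. The 12 libraries of a week come from lines sampled at both doses, so they are not 12 separate lines. Week and day of harvest cannot be told apart, nor, in bulk RNA, can fewer cells with a transcript and less of it per cell.

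CCN1 (ENSG00000142871, chromosome 1, 85580761 to 85583962) had the highest mean level of the 10 genes, 176 FPKM. At week 29 it stood at 91.7, 96.0 and 93.6 FPKM in miR-186 lines at 100 nM, at 86.4, 217 and 89.1 at 0 nM, at 113, 85.8 and 111 FPKM in vector lines at 100 nM and at 78.4, 76.4 and 63.7 at 0 nM, for replicates 1, 2 and 3. Its week 12 levels were 172, 314 and 180 FPKM in miR-186 lines at 100 nM, 249, 413 and 224 at 0 nM, 219, 249 and 172 FPKM in vector lines at 100 nM and 198, 449 and 180 at 0 nM. In each of the 4 combinations every library of week 29 lay below every library of week 12. One library of week 29, miR-186 at 0 nM replicate 2, overlapped the week 12 libraries of other combinations. CCN1 fell in vector lines at 0 nM by 1.79 ± 0.35 (adjusted p = 0.0116) and in miR-186 lines at 100 nM by 1.18 ± 0.35 (adjusted p = 0.0347). It stood at −1.26 ± 0.35 in miR-186 lines at 0 nM (adjusted p = 0.0528) and at −1.04 ± 0.35 in vector lines at 100 nM (adjusted p = 0.208). The call in vector lines was lost without replicate 2 of week 12 (−1.38, adjusted p = 0.111) or replicate 3 of week 29 (adjusted p = 0.0763). That in miR-186 lines at 100 nM was lost without replicate 2 of week 12 (−0.91, adjusted p = 0.209) or replicate 1 or 3 of week 29 (adjusted p = 0.102 and adjusted p = 0.0830). It was also lost with no filter on low values (adjusted p = 0.0772), with a correction for gene GC content (adjusted p = 0.0542) and in a fit of those groups alone (adjusted p = 0.0690). Without replicate 2 of week 29 the change in miR-186 lines at 0 nM was −1.69 (adjusted p = 0.0104), and without replicate 3 of week 12 it was −1.43 (adjusted p = 0.0354).

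CCN2 (ENSG00000118523, chromosome 6, 131948176 to 131951373) passed in 3 of the 4 combinations. At week 29 it stood at 5.96, 5.96 and 5.26 FPKM in miR-186 lines at 100 nM, at 4.70, 12.0 and 4.40 at 0 nM, at 13.1, 6.80 and 12.8 FPKM in vector lines at 100 nM and at 5.99, 3.93 and 5.76 at 0 nM. In week 12 libraries it stood at 21.1, 19.8 and 14.1 FPKM in miR-186 lines at 100 nM, at 11.9, 19.2 and 18.1 at 0 nM, at 35.2, 21.2 and 23.2 FPKM in vector lines at 100 nM and at 29.3, 51.2 and 29.6 at 0 nM. The weeks did not overlap in 3 combinations; in miR-186 lines at 0 nM replicate 2 of week 29 lay level with the lowest library of week 12. CCN2 fell in vector lines at 0 nM by 2.67 ± 0.33 (adjusted p = 1.51e-04), in miR-186 lines at 100 nM by 1.58 ± 0.33 (adjusted p = 0.0111) and at 0 nM by 1.28 ± 0.33 (adjusted p = 0.0396). It stood at −1.26 ± 0.33 in vector lines at 100 nM (adjusted p = 0.124). The call at 0 nM in miR-186 lines was lost without any of replicates 1, 2 or 3 of week 12 or 1 or 3 of week 29 (adjusted p = 0.0576 to 0.182), and that at 100 nM without replicate 2 of week 12 (−1.51, adjusted p = 0.0772).

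ANKRD1 (ENSG00000148677, chromosome 10, 90912096 to 90921276) varied widely between replicates. At week 29 it stood at 7.43, 7.30 and 10.5 FPKM in miR-186 lines at 100 nM, at 5.49, 14.0 and 5.22 at 0 nM, at 4.20, 1.67 and 2.08 FPKM in vector lines at 100 nM and at 2.71, 2.08 and 2.90 at 0 nM. In the week 12 libraries it stood at 13.8, 23.1 and 9.76 FPKM in miR-186 lines at 100 nM, at 15.0, 58.4 and 13.9 at 0 nM, at 7.91, 6.25 and 4.73 FPKM in vector lines at 100 nM and at 10.6, 29.5 and 7.17 at 0 nM. In vector lines the weeks did not overlap at either dose, and in miR-186 lines they did. No combination alone passed: ANKRD1 stood at −2.17 ± 0.52 in vector lines at 0 nM (adjusted p = 0.0502), −1.57 ± 0.52 in miR-186 lines at 0 nM (adjusted p = 0.0888), −1.17 ± 0.52 in vector lines at 100 nM and −0.78 ± 0.52 in miR-186 lines at 100 nM. With the replicate number as a block over all 24 libraries, ANKRD1 passed in vector lines at 0 nM (adjusted p = 0.0235). The block was not fitted to this comparison alone, and the number was not shown to pair libraries in most other comparisons. ANKRD1 also passed in vector lines at 0 nM without replicate 3 of week 12 (−2.58, adjusted p = 0.0315).

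**Figure D1:**
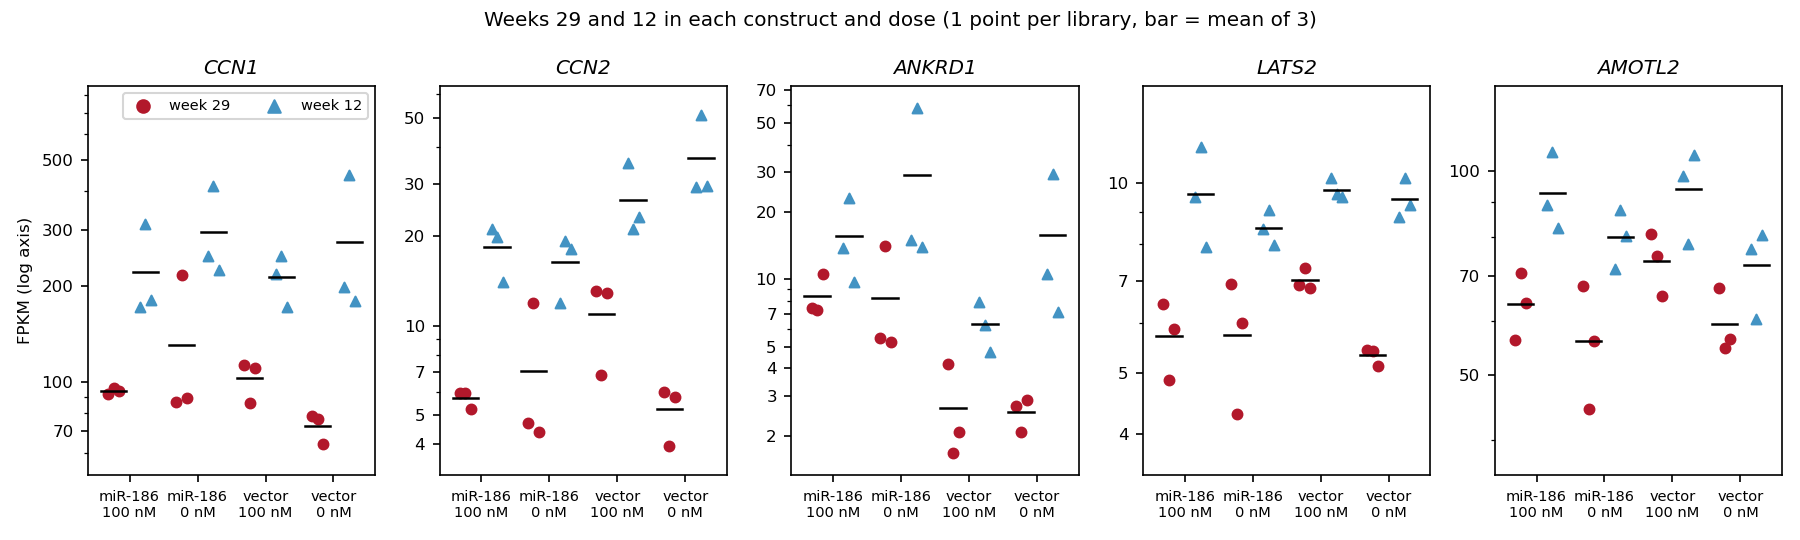
FPKM (log axis) of CCN1, CCN2, ANKRD1, LATS2 and AMOTL2 in each construct and dose, 1 point per library, with week 29 as circles left of week 12 as triangles and bars at the mean of 3 libraries. LATS2 lies between 4.30 and 7.33 FPKM in all week 29 libraries and between 7.93 and 11.4 FPKM in all week 12 libraries.

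LATS2 (ENSG00000150457, chromosome 13, 20973032 to 21061547), the kinase that restrains YAP and a target of it, separated the weeks across both constructs and doses. Over 12 libraries it had 4.30 to 7.33 FPKM with a median of 5.92 at week 29 and 7.93 to 11.4 FPKM with a median of 9.36 at week 12, with no overlap. At week 29 it stood at 6.43, 4.86 and 5.86 FPKM in miR-186 lines at 100 nM, at 6.92, 4.30 and 5.98 at 0 nM, at 6.89, 7.33 and 6.82 FPKM in vector lines at 100 nM and at 5.43, 5.41 and 5.12 at 0 nM. Its week 12 levels were 9.49, 11.4 and 7.93 FPKM in miR-186 lines at 100 nM, 8.44, 9.05 and 7.97 at 0 nM, 10.2, 9.60 and 9.50 FPKM in vector lines at 100 nM and 8.84, 10.2 and 9.24 at 0 nM. The highest library of week 29 thus lay below the lowest of week 12, whatever the construct or dose. How many of all genes separate the weeks in this way was not counted. LATS2 fell by 0.70 ± 0.16 in miR-186 lines at 100 nM (adjusted p = 0.0135) and by 0.77 ± 0.16 in vector lines at 0 nM (adjusted p = 0.0195). It stood at −0.55 ± 0.16 in miR-186 lines at 0 nM (adjusted p = 0.0630) and −0.45 ± 0.16 in vector lines at 100 nM (adjusted p = 0.231). The call in vector lines at 0 nM was lost without any 1 of its 6 libraries (adjusted p = 0.0506 to 0.134), and that in miR-186 lines at 100 nM without replicate 2 of week 12 (adjusted p = 0.107).

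AMOTL2 (ENSG00000114019, chromosome 3, 134355874 to 134375479) had 44.4 to 80.6 FPKM with a median of 64.5 at week 29 and 60.4 to 107 FPKM with a median of 81.3 at week 12. With iAs it had, in miR-186 lines, 56.3, 70.7 and 63.7 FPKM at week 29, against 89.1, 107 and 82.2 FPKM at week 12. In the same lines without iAs it had 67.5, 44.4 and 56.1 FPKM at week 29, against 71.6, 87.5 and 80.2 FPKM at week 12. In vector lines it had 80.6, 74.7 and 65.3 FPKM at week 29, against 98.4, 78.1 and 106 FPKM at week 12, with iAs, and 67.2, 54.7 and 56.5 FPKM against 76.7, 60.4 and 80.4 FPKM without. The weeks did not overlap in miR-186 lines and overlapped in vector lines. AMOTL2 fell by 0.54 ± 0.17 in miR-186 lines at 100 nM (adjusted p = 0.0426), and in the other 3 combinations stood at −0.28 to −0.52. A correction for gene GC content brought the change at 100 nM to −0.22 (adjusted p = 0.378) and the mean over the combinations to −0.24 (adjusted p = 0.0250). The call at 100 nM was also lost without replicate 1 or 2 of week 12 or 1 or 3 of week 29 (adjusted p = 0.0632 to 0.220). The annotation places the pseudogene RPL39P5, listed at 0 to 356 FPKM, on the same strand within the bounds of AMOTL2, so the level of AMOTL2 is uncertain where reads could be split between them.

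Counted by comparison of the weeks, 3 of the 10 genes fell and none rose in vector lines at 0 nM (0.907% of all genes passed), none passed in vector lines at 100 nM (0.183%; 4 had an unadjusted p under 0.05 in limma), 1 fell in miR-186 lines at 0 nM (2.9%) and 4 fell in miR-186 lines at 100 nM (12.2%). The median change of the 10 genes was −0.52, −0.24, −0.18 and −0.32 in these 4 comparisons, beside 0.00, −0.02, 0.06 and 0.02 over all genes. Groups of 3 did not overlap for 5, 4, 5 and 4 of the 10 genes, where 18.2%, 16.9%, 30.7% and 33% of all genes had no overlap. The summed keratinocyte markers were 940 to 1747 FPKM at week 29 and 1504 to 2103 FPKM at week 12 in miR-186 lines at 100 nM, and 925 to 1382 and 1500 to 2731 FPKM at 0 nM. In vector lines they were 1953 to 2999 and 2277 to 3874 FPKM at 100 nM and 1843 to 2493 and 2198 to 2664 FPKM at 0 nM. Their part in the week results was not tested.

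A signature of 22 YAP targets holds CCN1, CCN2, ANKRD1, AMOTL2, LATS2 and AXL, so its counts repeat genes described above. Of the 22, 4 fell in vector lines at 0 nM (0.907% of all genes passed) and 5 fell in miR-186 lines at 100 nM (12.2% of all genes), and none rose. Of those that fell, 3 and 4 are among the 10 genes, and only GADD45A and ARHGEF17 are not. GADD45A, a gene of growth arrest after DNA damage, fell in vector lines at 0 nM by 1.45 ± 0.18 (74.9 ± 5.22 FPKM at week 29 and 206 ± 21.7 FPKM at week 12, n = 3; adjusted p = 1.51e-04). ARHGEF17 fell in miR-186 lines at 100 nM by 0.88 ± 0.28 (4.02 ± 1.56 against 7.63 ± 1.88 FPKM; adjusted p = 0.0451), but stood at −0.26 with the GC correction (adjusted p = 0.465). The ARHGEF17 call was lost without replicate 1 or 2 of either week (adjusted p = 0.0653 to 0.235), while that of GADD45A held without any 1 library. Over the 4 combinations 1 of 22 rose and 8 fell, where 30.4% of all genes passed, and the median was −0.17, beside 0.02 over all genes. Those that fell include CCN1, CCN2, ANKRD1, LATS2 and AMOTL2, described above, so this count is not separate from theirs.

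Among the factors themselves, 2 of 9 tested fell at week 29 in miR-186 lines at 100 nM, where 12.2% of all genes passed. These were TEAD3, at 7.74 ± 2.34 FPKM against 15.8 ± 5.80 FPKM (−0.97 ± 0.28, adjusted p = 0.0351), and WWTR1, which encodes the YAP paralog TAZ, at 21.6 ± 0.284 against 30.7 ± 4.19 FPKM (−0.49 ± 0.16, adjusted p = 0.0471; n = 3). TEAD3 stood at −0.49 with the GC correction (adjusted p = 0.0780), and without replicate 2 of week 12 TEAD3 and WWTR1 had adjusted p = 0.221 and adjusted p = 0.240. Leaving out replicate 1 or 3 of week 29 took TEAD3 to adjusted p = 0.169 and adjusted p = 0.0651, and leaving out replicate 3 of week 12 or any library of week 29 took WWTR1 to adjusted p = 0.0634 to 0.122. Over the 4 combinations TEAD2, TEAD3 and WWTR1 fell and none of the 9 rose, a share near the 30.4% of all genes that passed. Of 16 Hippo kinases and scaffolds, the kinase gene TAOK3 rose (0.46 ± 0.12, adjusted p = 0.0264) and the scaffold gene WWC3 fell beside LATS2 (−0.73 ± 0.14, adjusted p = 0.00692) in miR-186 lines at 100 nM, and in vector lines at 0 nM LATS2 was the 1 that passed. TAOK3 stood at 0.29 with the GC correction (adjusted p = 0.0637) and was lost without replicate 1 or 2 of week 12 or 1 or 3 of week 29 (adjusted p = 0.0526 to 0.124), and WWC3 without replicate 2 of week 12 (adjusted p = 0.0521) and in a fit of those groups alone (adjusted p = 0.0977). Of 12 tested junction and LIM proteins, AMOTL2 was the 1 past the threshold in miR-186 lines at 100 nM and none passed in vector lines at 0 nM.

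AMOT, the founding angiomotin, was higher in miR-186 lines than in vector lines. AMOT (ENSG00000126016, chromosome X, 112774503 to 112840815) had 1.52 to 10.2 FPKM with a mean of 5.19 ± 2.77 in 12 miR-186 libraries and 0.0621 to 2.58 FPKM with a mean of 0.769 ± 0.791 (SD) in 12 vector libraries. At week 29 it stood at 10.2, 3.51 and 4.20 FPKM in miR-186 lines and 2.58, 0.320 and 1.75 FPKM in vector lines at 100 nM. Without iAs it had 7.64, 6.12 and 9.84 FPKM in miR-186 lines at week 29, against 1.62, 0.192 and 0.384 FPKM in vector lines. Its week 12 levels were 3.53, 3.49 and 1.52 FPKM in miR-186 lines and 0.677, 0.0639 and 0.669 FPKM in vector lines at 100 nM, and 2.84, 3.81 and 5.59 against 0.410, 0.0621 and 0.498 FPKM at 0 nM. The constructs did not overlap at any dose or week, although the lowest miR-186 library lay below the highest vector libraries of other groups, and replicate 2 was the lowest vector library in each group. Of all genes, 28% and 27.6% had no overlap between constructs at 0 nM at weeks 29 and 12. At 100 nM the shares were 15.4% and 18.3%.

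AMOT rose in miR-186 lines at 0 nM by 2.92 ± 0.50 at week 29 (adjusted p = 0.00345) and by 2.47 ± 0.50 at week 12 (adjusted p = 0.00900). At 100 nM it stood at 1.72 ± 0.50 at week 29 (adjusted p = 0.106) and at 1.80 ± 0.50 at week 12 (adjusted p = 0.0673). Without replicate 3 of the miR-186 lines at 100 nM and week 12 the change was 2.13 (adjusted p = 0.0494). The ratio of the mean levels was 10.7 and 12.6 at 0 nM at weeks 29 and 12, and the fitted folds, on the scale of log2(FPKM + 0.5), were 7.55 and 5.56. Both calls at 0 nM held in all 17 alternatives each. Of 15 neighbours tested within 5 Mb of AMOT none was higher in any of the 4 comparisons, and their median changes were −0.04 and −0.25 at 100 nM and −0.23 and −0.46 at 0 nM, at weeks 29 and 12.

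**Figure D2:**
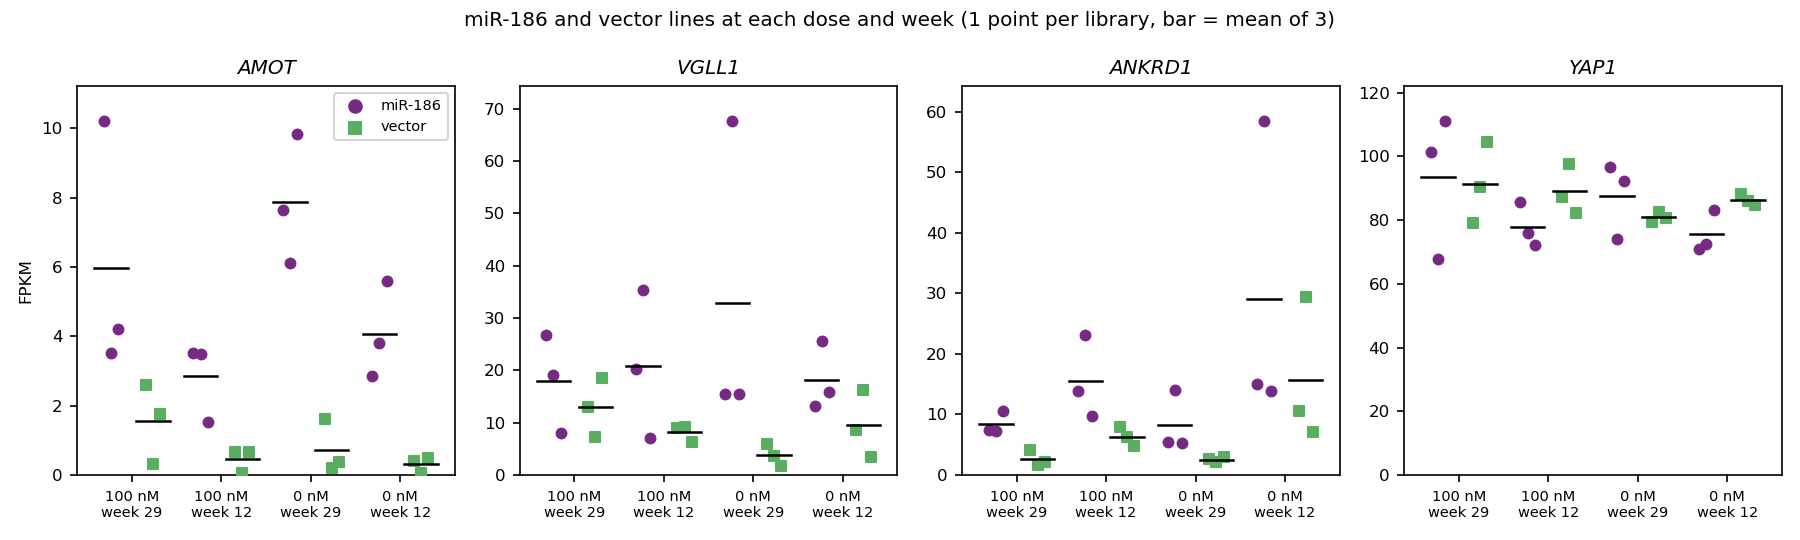
FPKM of AMOT, VGLL1, ANKRD1 and YAP1 at each dose and week, 1 point per library, with miR-186 lines as circles left of vector lines as squares and bars at the mean of 3 libraries. AMOT in miR-186 lines lies above vector lines at every dose and week, VGLL1 has 1 miR-186 library at 67.6 FPKM, and YAP1 lies between 67.9 and 111 FPKM throughout.

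VGLL1, a TEAD cofactor that competes with YAP for TEAD binding, was higher in miR-186 lines at 0 nM and week 29. VGLL1 (ENSG00000102243, chromosome X, 136532152 to 136556807) stood there at 15.5, 67.6 and 15.5 FPKM, against 5.95, 3.71 and 1.81 FPKM in vector lines. Replicate 2 of the miR-186 lines lay far above the others of its group, and the groups did not overlap, as for 28% of all genes. The change was 2.71 ± 0.63 (adjusted p = 0.0266), and 2.01 without that library (adjusted p = 0.123). The call was lost, too, on dropping any 1 of the vector libraries (adjusted p = 0.0509 to 0.0906), on testing all genes unfiltered (adjusted p = 0.0630) and on fitting those 6 libraries by themselves (adjusted p = 0.0874). At 100 nM and week 29 VGLL1 stood at 26.8, 19.1 and 8.06 FPKM in miR-186 lines and 13.0, 7.27 and 18.6 FPKM in vector lines, a change of 0.40 ± 0.63. At week 12 it stood at 20.3, 35.4 and 7.02 FPKM in miR-186 lines and 9.03, 9.23 and 6.32 FPKM in vector lines at 100 nM (1.05 ± 0.63), and at 13.2, 25.6 and 15.8 against 8.60, 16.3 and 3.48 FPKM at 0 nM (1.09 ± 0.63). The groups overlapped in all 3 of these comparisons. At 0 nM and week 29, where VGLL1 and AMOT passed, DCN had 0.880 to 78.0 FPKM in miR-186 lines and 0.258 to 0.556 FPKM in vector lines, and its part in those results was not tested. None of the 25 neighbours of VGLL1 within 5 Mb was higher in any of the 4 construct comparisons.

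Over doses and weeks together, AMOT rose in miR-186 lines by 2.23 ± 0.25 (adjusted p = 3.53e-06), VGLL1 by 1.31 ± 0.32 (adjusted p = 0.00549) and ANKRD1 by 1.23 ± 0.26 (adjusted p = 0.00193), and CCN2 fell by 0.54 ± 0.16 (adjusted p = 0.0229). ANKRD1 had a median of 12.2 FPKM (5.22 to 58.4) in miR-186 libraries and 4.46 FPKM (1.67 to 29.5) in vector libraries, and the constructs did not overlap at 100 nM at either week or at 0 nM and week 29. Of all genes 15.4% and 18.3% had no overlap at 100 nM at weeks 29 and 12, and 28% at 0 nM and week 29. CCN2 had a median of 11.9 FPKM (4.40 to 21.1) in miR-186 libraries and 17.1 FPKM (3.93 to 51.2) in vector libraries. So 3 of the 10 genes were higher and 1 lower, against 22.2% of all genes past the threshold. These 12 libraries a construct come from 3 clonal lines each, so they are not independent and the adjusted p above are too small. With the construct and replicate number as a random block the CCN2 call was lost (adjusted p = 0.0833), and those of AMOT, VGLL1 and ANKRD1 were not. That block takes a replicate number to mark a clone, which is not stated, so it cannot settle whether the calls hold over clones. CCN1 (0.19 ± 0.17), LATS2 (−0.10 ± 0.08), AMOTL2 (−0.05 ± 0.08; 0.05 with the GC correction), AXL (−0.10 ± 0.17), AJUBA (0.14 ± 0.08) and YAP1 (−0.07 ± 0.08) did not pass.

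**Figure D3:**
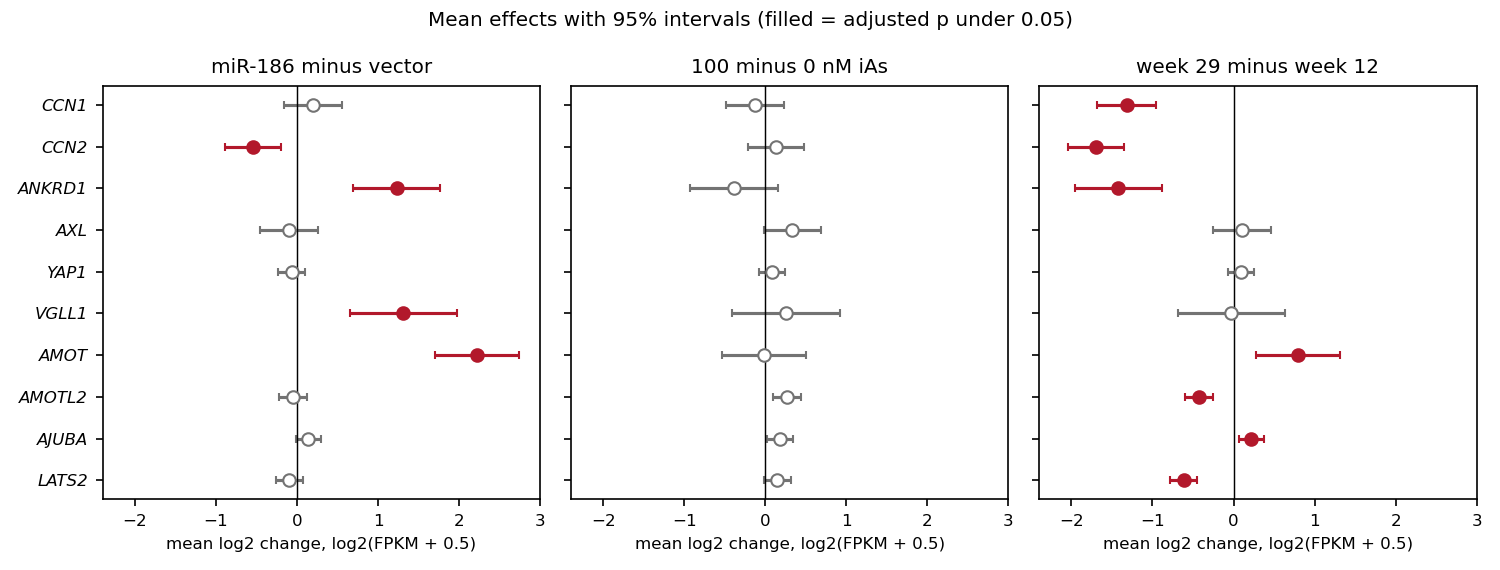
Mean log2 changes of the 10 genes with 95% intervals, for miR-186 minus vector over doses and weeks, 100 minus 0 nM iAs over constructs and weeks, and week 29 minus week 12 over constructs and doses. Filled points passed an adjusted p of 0.05: 4 genes between constructs, none with iAs and 7 between weeks.

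Between constructs at single doses and weeks, 2 of the 10 genes rose at 0 nM and week 29 (2.86% of all genes passed), 1 rose at 0 nM and week 12 (3.44%), and none passed at 100 nM at week 29 (0.864%) or at week 12 (2.02%), where limma gave 3 and 2 of the 10 an unadjusted p under 0.05. None fell in these 4 comparisons. CCN2 at 0 nM and week 12 stood at −1.11 ± 0.33 (adjusted p = 0.0652), with no overlap (11.9, 19.2 and 18.1 FPKM in miR-186 lines and 29.3, 51.2 and 29.6 FPKM in vector lines), as for 27.6% of all genes. Among the junction and LIM proteins PALS1, a scaffold of the Crumbs polarity complex, fell at 0 nM and week 12 by 0.63 ± 0.17 (18.4 ± 2.09 FPKM in miR-186 lines and 28.9 ± 4.02 FPKM in vector lines, n = 3; adjusted p = 0.0402). Of 16 Hippo kinases and scaffolds the kinase gene TAOK1 rose at 0 nM and week 29 (19.9 ± 1.39 against 11.1 ± 1.52 FPKM; 0.81 ± 0.15, adjusted p = 0.00754), and none passed in the other 3. TAOK1 missed the threshold in a fit of those groups alone (adjusted p = 0.0532). The PALS1 call was lost without replicate 1 or 2 of either construct (adjusted p = 0.116 to 0.143).

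iAs moved none of the 10 genes past the threshold in any of the 4 comparisons of 100 with 0 nM. Of all genes 1.38% passed in vector lines at week 12 and 0% in vector lines at week 29, in miR-186 lines at week 12 and in miR-186 lines at week 29, where limma gave 555, 1558 and 312 genes at unadjusted p under 0.05. Of the 10 genes 3, 1 and 0 had an unadjusted p under 0.05 there, and 1 in vector lines at week 12. CCN2 in vector lines at week 29 stood at 13.1, 6.80 and 12.8 FPKM with iAs and 5.99, 3.93 and 5.76 FPKM without (0.96 ± 0.33). VGLL1 stood there at 13.0, 7.27 and 18.6 FPKM with iAs and 5.95, 3.71 and 1.81 FPKM without (1.67 ± 0.63). The groups overlapped for neither gene, with adjusted p = 1 in limma for both. In that comparison 9 of the 10 changes lay above 0, with a median of 0.34 beside 0.03 over all genes, and 4 of 10 genes did not overlap, where 9.9% of all genes had no overlap. In vector lines at week 12 and miR-186 lines at weeks 12 and 29 the medians were 0.04, 0.10 and 0.04. Over all genes they were 0.00, 0.02 and −0.01. Of the 10 genes 0, 1 and 0 did not overlap there, beside 37.2%, 17% and 5.62% of all genes. Over constructs and weeks none of the 10 passed, against 7.58% of all genes. AMOTL2 came nearest at 0.27 ± 0.08 (adjusted p = 0.0513). It passed in 10 of 34 alternatives (lowest adjusted p = 0.0235), and stood at 0.08 with the GC correction (adjusted p = 0.644).

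The differences between these effects were tested as well. None of the 10 genes, and 0% of all genes, passed in any of 6 differences. These were the construct effect between doses at week 29 and at week 12, the construct effect between weeks at 100 nM and at 0 nM, and the iAs effect between weeks in miR-186 and in vector lines. limma gave 272, 421, 362, 1910, 439 and 1058 genes at unadjusted p under 0.05 in these comparisons. CCN2 had the smallest p of the 10: its construct effect at 0 nM was 1.39 ± 0.47 higher at week 29 than at week 12 (adjusted p = 0.329), and its iAs effect in vector lines 1.41 ± 0.47 higher (adjusted p = 0.656). These 2 differences set the CCN2 change between weeks in vector lines at 0 nM, −2.67, against −1.28 in miR-186 lines at 0 nM and −1.26 in vector lines at 100 nM. The VGLL1 construct effect at week 29, at 100 nM minus at 0 nM, differed by −2.31 ± 0.90 (adjusted p = 1).

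YAP1, AXL and AJUBA passed in no comparison of 2 groups, and YAP1 and AXL in no mean effect. YAP1 (ENSG00000137693, chromosome 11, 102110461 to 102233423) had 67.9 to 111 FPKM over all libraries, and its group means ran from 75.5 ± 6.73 FPKM in miR-186 lines at 0 nM and week 12 to 93.4 ± 22.6 FPKM in miR-186 lines at 100 nM and week 29. Neighbouring groups in this order differed by less than the larger of their SDs, except vector lines at 0 nM, which had 80.8 ± 1.63 FPKM at week 29 and 86.3 ± 1.60 FPKM at week 12 (−0.09 ± 0.16, adjusted p = 0.904). The 95% interval of its mean construct effect was −0.23 to 0.10 on the log2 scale, and those of its iAs and week effects were −0.08 to 0.24 and −0.07 to 0.26. The receptor tyrosine kinase gene AXL (ENSG00000167601, chromosome 19, 41219203 to 41261766) had 5.16 to 18.3 FPKM, with group means of 8.22 ± 3.41 to 12.9 ± 3.84 FPKM and an interval of −0.25 to 0.46 for the mean week effect. AJUBA (ENSG00000129474, chromosome 14, 22971174 to 22982642), a LIM protein that binds LATS kinases, had 133 to 216 FPKM (median 175) at week 29 and 109 to 208 FPKM (median 146) at week 12. In miR-186 lines at 0 nM AJUBA had 170 to 211 FPKM at week 29 and 109 to 141 FPKM at week 12, without overlap, as for 30.7% of all genes. The change there was 0.51, and it passed in 5 of 17 alternatives (lowest adjusted p = 0.0327). In the other combinations AJUBA stood at 0.03 to 0.20. Its mean rise between weeks was lost on leaving out any 1 of 9 libraries (adjusted p = 0.0511 to 0.0647). These were replicate 1 of each group of week 29 and, of week 12, replicates 1 and 2 of vector at 100 nM, 1 and 3 of miR-186 at 100 nM and 1 of miR-186 at 0 nM. ENSG00000259132, at 4.31 to 14.7 FPKM, overlaps AJUBA on the same strand.

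**Figure D4:**
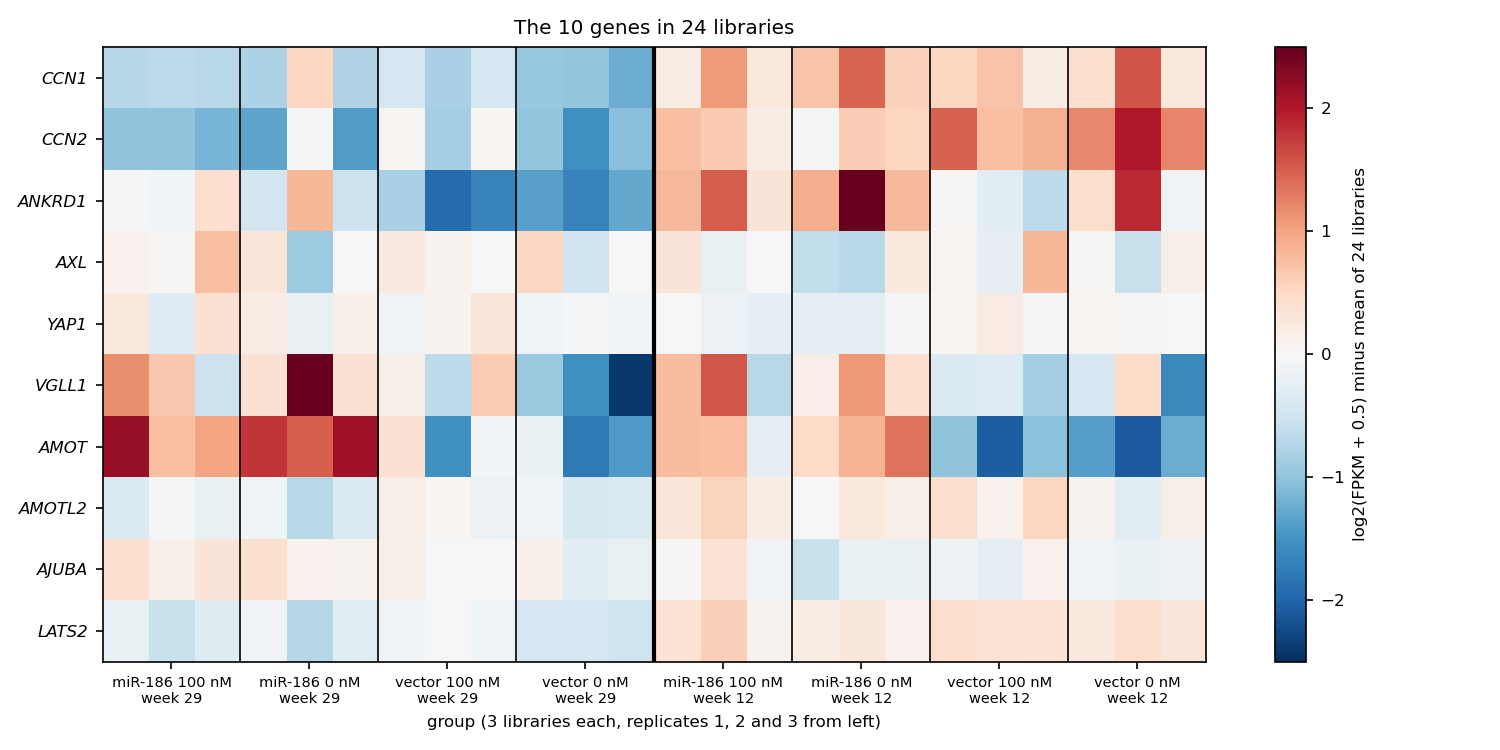
Heat map of log2(FPKM + 0.5) minus the mean of the 24 libraries for each gene, with week 29 left of week 12 and replicates 1 to 3 of each group side by side. CCN1, CCN2, ANKRD1 and LATS2 are blue in most week 29 libraries and red in most week 12 libraries, AMOT is red in 11 of 12 miR-186 libraries, and replicate 2 of miR-186 at 0 nM and week 29 departs from its group in CCN1, CCN2, ANKRD1 and VGLL1.

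Within the 10 genes, levels over the 24 libraries correlated most between CCN1 and CCN2 (Pearson r = 0.841), CCN1 and ANKRD1 (0.826), CCN2 and LATS2 (0.798) and AMOTL2 and LATS2 (0.782), as a description of libraries that share weeks, lines and depth. Replicate 2 was the highest library for both CCN1 and ANKRD1 in miR-186 lines at 0 nM at both weeks, in miR-186 lines at 100 nM and week 12 and in vector lines at 0 nM and week 12. AMOT correlated with VGLL1 (0.653) and little with YAP1 (0.01). Among all other genes tested, those most like CCN1 were PTGS2 (0.949), NR4A1 (0.942) and EDN1 (0.937). Those most like CCN2 were ZFP36L1 (0.901), DUSP1 (0.878) and EDN1 (0.876), and most like ANKRD1 were H2BC8 (0.916), ATF3 (0.849) and DUSP5 (0.844). LATS2 was most like ZFP36L1 (0.895), PPP1R15A (0.886) and MAFF (0.871), and AMOTL2 most like RIPOR1 (0.899), CTIF (0.884) and USB1 (0.881). AMOT was most like ZBTB10 (0.915), MED1 (0.901) and ZNF426 (0.896), and VGLL1 most like WAC (0.826), KRBA2 (0.819) and HMGN5 (0.818). AXL was most like CDH4 (0.893), FAM167A (0.887) and PSEN2 (0.877). AJUBA was most like CA5B (0.829), C2orf74-DT (0.819) and PRR3 (0.813), and YAP1 most like HPSE (0.867), RECK (0.818) and ARHGAP42 (0.793).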

How the data were processed

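RNA of 24 HaCaT libraries, 8 groups of 3, was made into stranded mRNA libraries, per the labels' protocols. Per the submitters' processing notes, the authors used STAR 2.6.0c, the build hg38 (GRCh38) and Cuffdiff 2.2.1, and deposited FPKM. The annotation, the strand setting and further scaling are not given in the sources used here. The deposited FPKM were used as log2(FPKM + 0.5) for the 14228 genes whose mean reached 0.5 FPKM. A single model of the 8 groups was fitted with limma 3.58.1 in R 4.3.3, with trend and robust moderation. All 21 comparisons (12 between groups, 6 differences between effects, 3 mean effects) were adjusted by Benjamini-Hochberg over all genes at 0.05. On simulated data for miR-186 against vector at 0 nM and week 12, with 14228 genes, 98% of changes of log2 size 2 and 55% of size 1 were recovered, with 9 false calls. Each gene kept its mean and its spread within groups, with independent normal noise, and the changed genes were picked at random. Differences shared by libraries or lines were not simulated, so recovery was not measured for linked libraries or for single genes. Symbols matched 57740 of 58381 IDs. Coordinates and 3′ UTRs (the longest of each gene) come from GENCODE release 29.

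The 10 genes, the lists and the tests were chosen with earlier results of these data known. All 10 genes are named; of the other list genes, those past the threshold in a comparison described, up to 4 per list, and for each gene the 3 most correlated. Some results of the list genes are not reported here. P-values measure the spread between libraries, which the labels call biological triplicates.

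Correlations of same-numbered libraries' deviations from their group means, across genes, were over 0.1 for every number in 4 comparisons: the weeks in vector lines at 0 nM (0.31, 0.52 and 0.17) and in miR-186 lines at 100 nM (0.34, 0.41 and 0.39), iAs in vector lines at week 29 (0.49, 0.46 and 0.62), and the constructs at 0 nM, week 29 (0.21, 0.23 and 0.20). There the number was taken to pair libraries, from the data and not the labels; between constructs it cannot mark a shared clone. Alternatives were other pseudocounts, filters and scaling, a correction for gene GC content, blocks by replicate number, a fit on only the groups compared, and leaving out each library.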

Additional observations from a re-analysis of the deposited data

How the results depend on the processing

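Of 444 counts of called genes over the 21 comparisons and their alternatives, 402 were within 1.5 times the reported count. Between constructs at 0 nM and week 29 the count of 2 became 1 without a filter, 1 in a fit on only the groups compared and 1 to 2 leaving out libraries. At 100 nM and week 12 the count of 0 became 1 with the GC correction, 1 with the fixed replicate block, 1 with both and 0 to 1 leaving out libraries, and at 100 nM and week 29 it became 1 with the block and 1 with the block and the GC correction; each was AMOT. Between weeks, the count of 3 in vector lines at 0 nM became 1 in a fit on only the groups compared and 1 to 3 leaving out libraries. The count of 1 in miR-186 lines at 0 nM became 0 without a filter, 0 in a fit on only the groups compared, 5 with the fixed block, 6 with a random block, 5 with the fixed block and the GC correction, and 0 to 3 leaving out libraries. The count of 4 in miR-186 lines at 100 nM became 2 without a filter, 2 with the GC correction, 1 in a fit on only the groups compared (CCN1 and AMOTL2 among those lost in all 3) and 0 to 5 leaving out libraries, with 0 without replicate 2 of miR-186 lines at 100 nM and week 12. The mean iAs count of 0 became 1 at a mean of at least 1 FPKM, 1 with the fixed block, 1 with the random block and 0 to 1 leaving out libraries. The cause was not tested.

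No called change of the 10 genes turned its direction. TAOK2, a Hippo kinase gene, had a mean week effect of −0.26 and stood at 0.10 with the GC correction (adjusted p = 0.414) and at 0.10 with the GC correction and the block. Where the replicate number paired libraries, the block changed the call of ANKRD1 in the week comparison of vector lines at 0 nM (3 to 4 genes called) and no other call of the 10 genes. In the other comparisons of 2 groups the number was not shown to pair libraries, although the block was fitted over all 24 libraries together. With 3 libraries a group, changes of log2 size 1 were recovered in 55% of simulated cases in miR-186 against vector at 0 nM and week 12, so uncalled changes of that size were often not detectable, and FPKM without counts give no interval for AMOT near 0.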
